A study of Mus musculus with 6 samples.

Results

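The IL-2 receptor and the receptors that share the common gamma chain were followed in mouse regulatory T cells (Treg) that did or did not express a Blimp-1 reporter. The group held 10 genes of the 26286 genes in the count tables, chosen by symbol: the receptor chains Il2ra, Il2rb, Il15ra, Il4ra, Il7r, Il9r and Il21r, the shared chain Il2rg, and the kinases Jak1 and Jak3. Of these, 9 had reads in both kinds of library and were tested, and Jak3 had reads in the poly(A) libraries only. Treg keep other immune cells in check, and Blimp-1, the product of Prdm1, is a transcriptional repressor of effector lymphocytes. GFP+ Treg were CD4+ CD25high cells that expressed the Blimp1/GFP reporter, and GFP- Treg were CD4+ CD25high cells without reporter signal. Both came from C57BL/6 reporter mice whose sample titles carry the prefix BlimpHet, with no treatment given, and the age of the mice was not given in the sources used here. Spleens and lymph nodes were pooled before sorting, so organs and single animals cannot be told apart. Each population had 3 libraries, described by the study as biologically independent. 1 was made by poly(A) selection (GFP+ replicate 19, GFP- replicate 20) and 2 with a single-cell amplification protocol applied to RNA of the sorted population (GFP+ replicates 1 and 4, GFP- replicates 2 and 5). Values of single libraries stand in the order 19, 1 and 4 for GFP+ Treg and 20, 2 and 5 for GFP- Treg, with the poly(A) library first. CD25 is the protein of Il2ra, so the sort acted on the product of this gene in both populations.

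The receptors of this family are built from a cytokine-specific chain and the common gamma chain Il2rg, and IL-2 and IL-15 also share the beta chain Il2rb. The alpha chain Il2ra raises the affinity for IL-2 and is a hallmark of Treg, which depend on IL-2 from other cells. Jak1 binds the specific chains and Jak3 the gamma chain, and both activate STAT factors, mainly STAT5 for IL-2, IL-7, IL-9 and IL-15, STAT6 for IL-4 and STAT3 for IL-21.

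Library totals were between 15224051 and 28354321 counts. Prdm1, which checks the reporter labels, had 152, 44.3 and 29.5 CPM (counts scaled to the size of the library) in the GFP+ libraries, against 9.14, 2.46 and 2.66 CPM in the GFP- libraries, so each GFP+ library was above the GFP- libraries of its protocol. The T cell markers with reads in both protocols summed to between 2090 and 4910 CPM in GFP+ Treg and between 2270 and 5020 CPM in GFP- Treg, and these ranges overlapped. Of the macrophage and other myeloid markers, 13 of 13 tested rose, summing to between 895 and 1860 CPM in GFP+ Treg and between 19.8 and 31.5 CPM in GFP- Treg, led by C1qc and Csf1r, with none at 0 in all libraries. Of the 6 mast cell and basophil markers, 1 was tested and fell (Kit), Fcer1a and Ms4a2 were at 0 in all 6 libraries, and the 3 with single-cell protocol reads (Kit, Gata2 and Mcpt8, leaving out Cpa3, which had reads in GFP- replicate 20 alone) summed to between 0.572 and 1.67 CPM in GFP+ Treg and between 2.15 and 6.31 CPM in GFP- Treg. Some markers of other lineages moved too. The dendritic cell markers with single-cell protocol reads summed to between 6.7 and 17.0 CPM in GFP+ Treg and between 1.65 and 3.61 CPM in GFP- Treg, and Itgax rose, 1 of 2 tested. Of the erythroid markers, 2 of 4 tested rose (Hba-a1 and Hba-a2), and of the plasma cell markers, 2 of 6 (Sdc1 and Irf4). The other plasma cell markers tested, Igj, Mzb1, Derl3 and Xbp1, did not pass. Of 4 natural killer cell markers tested, 1 rose (Gzma) and 1 fell (Ncr1), and of 2 CD8 T cell markers, 1 fell (Cd8a). Of 7 Treg markers tested, 2 rose (Ctla4 and Capg) and 1 fell (Lrrc32). In these bulk samples, fewer cells of a type and less RNA per cell cannot be told apart.

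Among the 9 tested genes, Il9r rose about 10-fold in GFP+ Treg and Il4ra fell to a level 2.27-fold lower, while the other 7 did not pass the test. The background was high, since 13.5% of 10551 tested genes passed, 9.82% higher and 3.72% lower in GFP+ Treg. The median log2 fold change, GFP+ minus GFP-, was -0.01 over the 9 genes and -0.08 over all tested genes. Counts of 1 rise and 1 fall among 9 genes are near that background and say nothing particular of the family. Tests were edgeR's quasi-likelihood test with the protocol as covariate and Benjamini-Hochberg adjustment across the 10551 genes, and an adjusted p under 0.05 passed. In 4 of the 9 genes every GFP+ library lay on one side of every GFP- library of its protocol, which 40.6% of all tested genes did. Il9r and Il7r were above, as were 21.3% of all tested genes, and Il2ra and Il4ra were below, as were 19.3%.

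**Figure D1:**
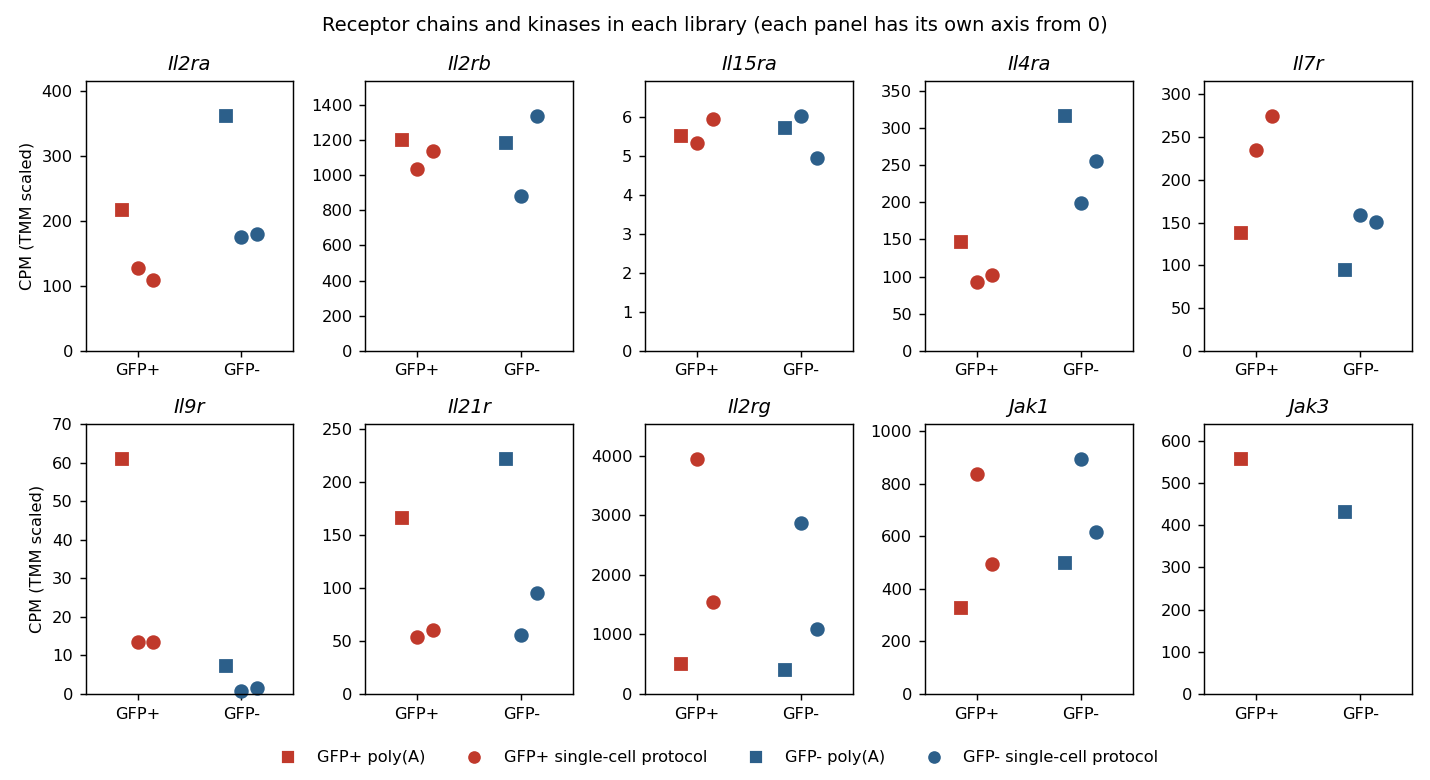
CPM (vertical axis, from 0) of the 10 genes in each library, 1 panel per gene, with GFP+ Treg left of GFP- Treg and the protocol shown by the symbol. Il9r lies between 13.4 and 60.9 CPM in GFP+ libraries and between 0.797 and 7.20 CPM in GFP- libraries.

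**Figure D2:**
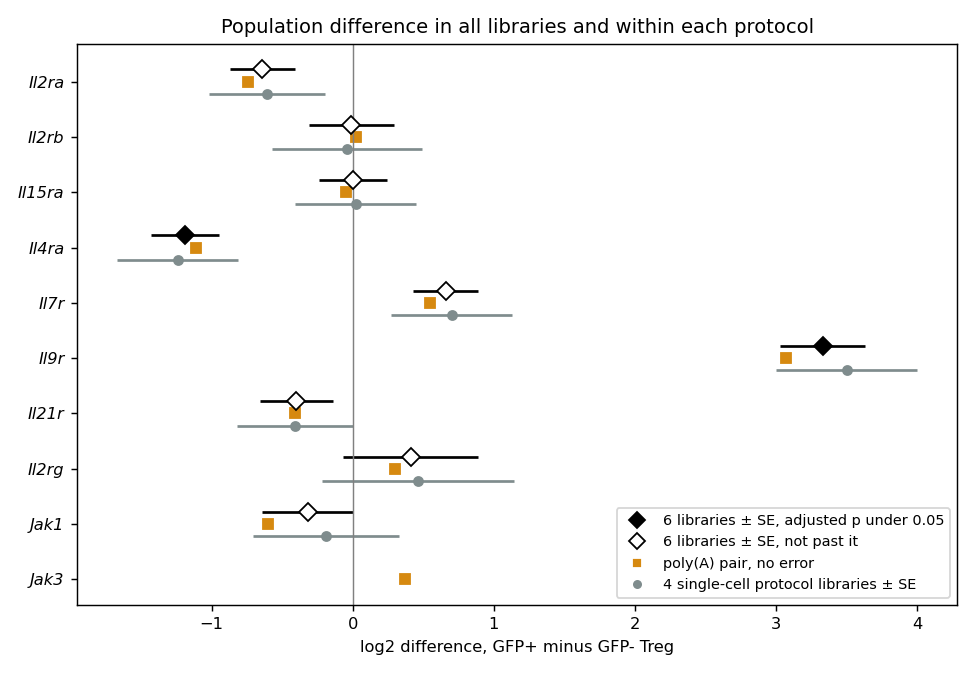
Log2 fold change of each gene, GFP+ minus GFP- (horizontal axis), from all 6 libraries with its standard error, beside the values within each protocol. Il9r (3.33) and Il4ra (-1.19) stand farthest from 0, and Jak3 has the poly(A) value alone (0.37).

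Il9r (Entrez 16199, chromosome 11), the specific chain of the IL-9 receptor, showed the largest difference of the 9 genes. Its level was 60.9, 13.4 and 13.4 CPM in the GFP+ libraries, against 7.20, 0.797 and 1.65 CPM in the GFP- libraries. Every GFP+ library was above every GFP- library, across protocols too. The counts behind these values were 2991, 164 and 185 reads in GFP+ Treg and 331, 11 and 13 reads in GFP- Treg, so the exact 95% Poisson interval, which covers counting error only, ran from 0.398 to 1.43 CPM in GFP- replicate 2. The log2 fold change was 3.33 ± 0.30 (SE), with an adjusted p of 0.000228 in edgeR. It was 3.07 in the poly(A) pair and 3.50 ± 0.50 (SE) in the single-cell protocol libraries alone, where it was the 1 gene of the 9 to pass (edgeR adjusted p = 0.000684), against 6.74% of all tested genes. In the poly(A) pair, 16.6% of 12713 genes with at least 1 CPM had a log2 ratio past 1 in either direction, as Il9r and Il4ra had. The call was lost in a fit without the protocol term (adjusted p = 0.346). Myeloid markers were also higher in GFP+ Treg, and their part in the Il9r difference was not tested.

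The 250 bases before the start site of Il9r are shown because this gene differed most, and those before Il4ra, up to its first annotated exon, because it was the gene that fell. A site of Il7r is shown because it matched a motif, as did a window of a second Il15ra start and no other. Sequences are from RefSeq on build GRCm38.p6, which differs from the mm9 build of the counts. Il9r is on the minus strand (chr11:32200280-32200529), Il4ra on the plus strand (chr7:125552021-125552119) and the Il7r site on the minus strand (chr15:9530000-9530028). Capitals mark the motif match.
Il9r promoter: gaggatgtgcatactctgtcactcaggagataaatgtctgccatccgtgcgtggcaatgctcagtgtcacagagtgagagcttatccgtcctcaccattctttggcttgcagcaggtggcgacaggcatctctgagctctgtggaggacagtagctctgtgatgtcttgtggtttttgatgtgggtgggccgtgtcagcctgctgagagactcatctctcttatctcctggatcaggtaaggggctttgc
Il4ra promoter: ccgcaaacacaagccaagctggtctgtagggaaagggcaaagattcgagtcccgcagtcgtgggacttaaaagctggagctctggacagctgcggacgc
Il7r site: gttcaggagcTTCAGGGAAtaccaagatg
Windows of 250 bases before 10 start sites of 9 of the 10 genes were searched on both strands for TTCNNNGAA, the palindromic motif bound by STAT5-type factors, for TGANTCA, the AP-1 motif, and for GTGAAAG, the core bound by Blimp-1. Over all 32851 windows, 7.02% held the first, 6.75% the second and 3.57% the third. The Il7r window held TTCNNNGAA, 142 bases before the start, and the Il9r and Il4ra windows held none of the 3 motifs. A match is a run of letters and not a shown binding site.

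Il4ra (Entrez 16190, chromosome 7), the chain that binds IL-4 and, with Il13ra1, IL-13, was lower in GFP+ Treg. Its level was 147, 92.9 and 101.5 CPM in the GFP+ libraries, against 316, 199 and 256 CPM in the GFP- libraries, and no GFP+ library reached the lowest GFP- library. The log2 fold change was -1.19 ± 0.24 (SE, edgeR adjusted p = 0.0118), with -1.11 in the poly(A) pair and -1.24 ± 0.43 (SE) in the single-cell protocol libraries alone. The direction was the same in all 15 alternatives, but the call was lost in 6 of them. With GFP+ replicate 19, 1 or 4 left out, adjusted p in edgeR was 0.135, 0.0592 or 0.0578, and it was 0.119 with GFP- replicate 20 left out, 0.118 in the single-cell protocol libraries and 0.547 when the protocol term was dropped. In the GENCODE annotation a gene, Gm44876, lies antisense to Il4ra, and without a stated strand in the counting their reads cannot be told apart.

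Il7r (Entrez 16197, chromosome 15), the alpha chain of the IL-7 receptor and usually low on Treg, had 138, 234.5 and 274 CPM in the GFP+ libraries, against 94.5, 159 and 150.2 CPM in the GFP- libraries. Each GFP+ library was above the GFP- libraries of its protocol, with a log2 fold change of 0.66 ± 0.23 (SE), which did not pass (edgeR adjusted p = 0.1). It did pass with DESeq2 (adjusted p = 0.0233) and with a block of consecutive title numbers, 1 with 2, 4 with 5 and 19 with 20 (edgeR adjusted p = 0.0214).

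Il21r (Entrez 60504, chromosome 7), the IL-21 receptor chain, had 166, 54.2 and 60.7 CPM in the GFP+ libraries, against 222, 56.0 and 95.6 CPM in the GFP- libraries. The single-cell protocol libraries overlapped, and the log2 fold change of -0.40 ± 0.26 (SE) did not pass (edgeR adjusted p = 0.372). Il21r is the next protein-coding gene to Il4ra on chromosome 7, just as Il15ra is next to Il2ra on chromosome 2.

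The chains of the IL-2 receptor itself did not pass the test. Il2ra (Entrez 16184, chromosome 2), the alpha chain used in the sort, had 216, 127 and 109 CPM in the GFP+ libraries, against 361, 175 and 180 CPM in the GFP- libraries. Each GFP+ library was below the GFP- libraries of its protocol, and the log2 fold change was -0.64 ± 0.23 (SE, edgeR adjusted p = 0.111). It passed with DESeq2 (adjusted p = 0.0161) and with the block of consecutive title numbers (edgeR adjusted p = 0.0244).

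Il2rb (Entrez 16185, chromosome 15), the beta chain that signals for IL-2 and IL-15, had 1202, 1037 and 1140 CPM in the GFP+ libraries, against 1185, 882 and 1336 CPM in the GFP- libraries. The populations overlapped, with a log2 fold change of -0.01 ± 0.30 (SE, edgeR adjusted p = 0.986). Il15ra (Entrez 16169, chromosome 2), which presents IL-15, was low throughout, with 5.52, 5.31 and 5.94 CPM in the GFP+ libraries, against 5.70, 6.01 and 4.94 CPM in the GFP- libraries. Its log2 fold change was 0.00 ± 0.24 (SE, edgeR adjusted p = 0.995), and its populations overlapped too.

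Il2rg (Entrez 16186, chromosome X), the chain common to all these receptors, had 497.5, 3937 and 1542 CPM in the GFP+ libraries, against 404, 2872 and 1083 CPM in the GFP- libraries. The spread within a population and protocol was wider than the difference between populations. GFP+ replicate 1 was 2.55 times GFP+ replicate 4, and GFP- replicate 2 was 2.65 times GFP- replicate 5. The log2 fold change was 0.41 ± 0.48 (SE, edgeR adjusted p = 0.632), and it ran from -0.07 to 0.87 when single libraries were left out. With the block of consecutive title numbers it was 0.42 ± 0.27 (SE) and did not pass (edgeR adjusted p = 0.278). In the same annotation Gm20489 overlaps Il2rg on the same strand.

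Of the kinases, Jak1 (Entrez 16451, chromosome 4) had 328, 838 and 493 CPM in the GFP+ libraries, against 499, 893 and 615.5 CPM in the GFP- libraries. The single-cell protocol libraries overlapped, and the log2 fold change of -0.32 ± 0.32 (SE) did not pass (edgeR adjusted p = 0.570). Raver2 overlaps Jak1 on the opposite strand, with between 9 and 70 reads per library.

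Jak3 (Entrez 16453, chromosome 8) was listed at 0 in all 4 single-cell protocol libraries, as were 100% of the genes of chromosomes 8 and 9 that had at least 20 poly(A) reads. In the poly(A) pair it had 556 CPM (27322 reads) in the GFP+ library and 431 CPM (19815 reads) in the GFP- library. The log2 ratio was 0.37, with a 95% interval of 0.34 to 0.39 for counting error only, and with 1 library per population there is no replicate check. Of 12713 genes with at least 1 CPM in that pair, 21.7% had a higher ratio. Insl3 overlaps Jak3 on the same strand, with 2162 reads in the GFP+ and 1877 reads in the GFP- poly(A) library.

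Levels between genes were compared per kilobase of the gene length in the tables. In the poly(A) libraries Il2rb was the highest, with 445.6 CPM per kilobase in GFP+ Treg and 439.5 CPM per kilobase in GFP- Treg, followed by Il2rg with 309 in GFP+ Treg and 251 in GFP- Treg and Jak3 with 149 in GFP+ Treg and 115 in GFP- Treg. In all 4 single-cell protocol libraries Il2rg came first and Il2rb came next, so the order of these chains depended on the protocol. Il9r and Il15ra were the lowest, with Il9r above Il15ra in the GFP+ libraries and below it in the GFP- libraries. Lengths in the single-cell protocol table stop at 3000 bases, which touches Il2ra and other long genes.

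**Figure D3:**
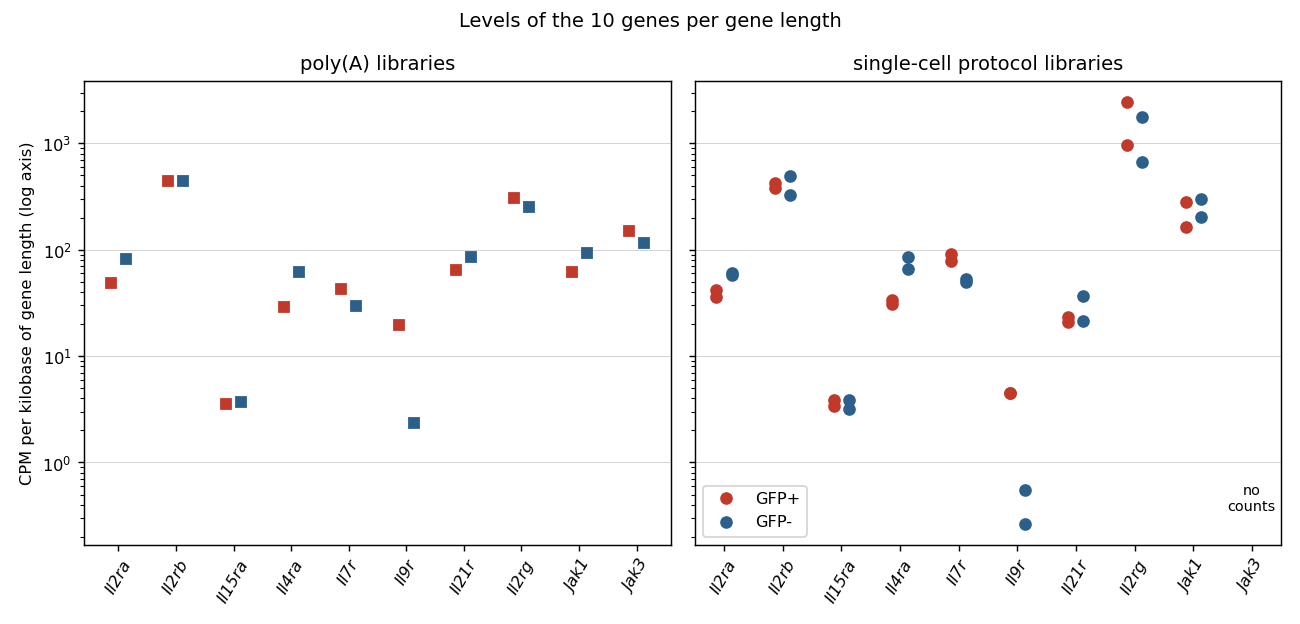
CPM per kilobase of gene length (log axis) of the 10 genes, poly(A) libraries left and single-cell protocol libraries right, 1 point per library with GFP+ left of GFP-. Il2rb is highest in the poly(A) libraries and Il2rg in the single-cell protocol libraries.

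Ratios between pairs of chains, per kilobase, set the levels within a library against each other. The pairs were picked after the values were seen, so they are given with no test. Il7r over Il4ra was 1.49, 2.53 and 2.70 in the GFP+ libraries, against 0.474, 0.802 and 0.587 in the GFP- libraries. It was higher in each GFP+ library than in the GFP- libraries of its protocol. Whether it lies above 1 depends on the lengths, with Il4ra at 5094 bases for the poly(A) libraries and 3000 for the others. Il9r over Il15ra was 5.54, 1.30 and 1.16 in the GFP+ libraries, against 0.634, 0.0684 and 0.172 in the GFP- libraries. Il2ra over Il2rb was 0.110, 0.110 and 0.0858 in the GFP+ libraries, against 0.185, 0.179 and 0.121 in the GFP- libraries. It was lower in each GFP+ library than in the GFP- libraries of its protocol. Across protocols it cannot be compared, since the Il2ra length was 4428 bases for the poly(A) libraries and 3000 for the others. Il2rg over Il2rb followed the protocol, with 0.693 in the GFP+ and 0.571 in the GFP- poly(A) library, against 6.35 and 2.26 in the other GFP+ and 5.45 and 1.36 in the other GFP- libraries.

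**Figure D4:**
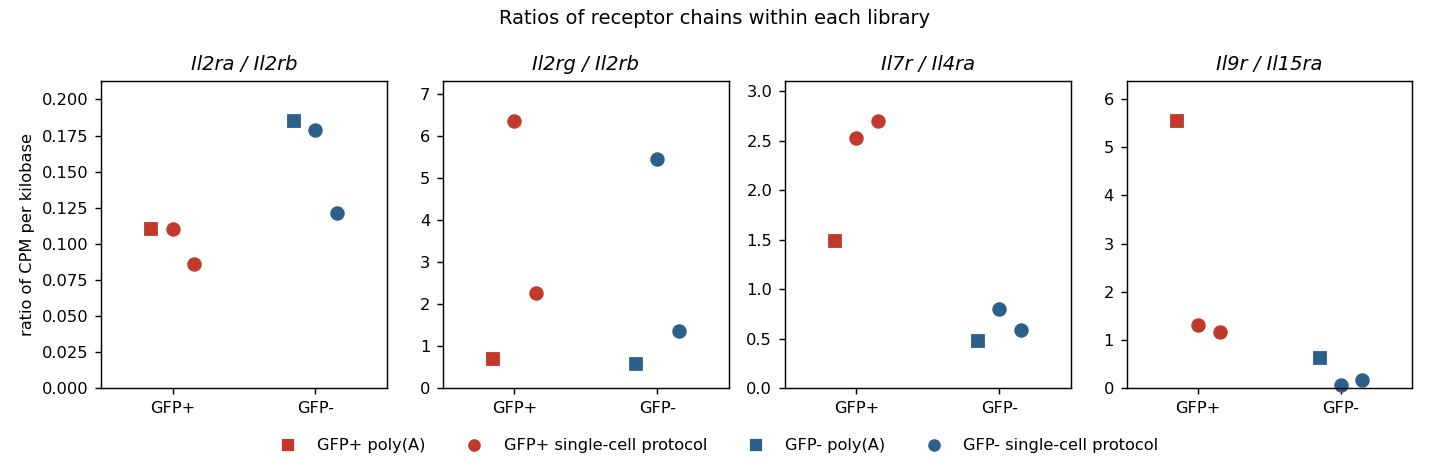
Ratios of CPM per kilobase between pairs of chains (vertical axis), 1 point per library, GFP+ left of GFP-. Il7r over Il4ra is higher in each GFP+ library than in the GFP- libraries of its protocol.

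Between protocols, single-cell minus poly(A), 5 of the 9 genes passed, beside 65.0% of all tested genes. Il2rg (log2 2.37 ± 0.57, SE) and Il7r (0.80 ± 0.25) were higher with the single-cell protocol, and Il9r (-2.37 ± 0.28), Il21r (-1.54 ± 0.27) and Il2ra (-0.95 ± 0.24) were lower. A dependence of the population differences on protocol could not be assessed with 1 poly(A) library per population. The edgeR interaction test called 0.0% of all tested genes after adjustment and had 0.256% under 0.05 unadjusted.

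Outside the receptors, 59 other genes of the pathway were tested, of which 14 rose, 9 fell and 36 did not pass, with a median log2 fold change of 0.00. Beside these counts and those of the lists that follow stand 9.82% higher and 3.72% lower over all tested genes. None of the 8 cytokines of the family had enough reads to be tested, and none was above 1.04 CPM in any library. Il2, Il7 and Il21 on chromosome 3 and Il15 on chromosome 8 could not be read in the single-cell protocol table, where nearly all genes of these chromosomes are listed at 0. Il21 had 0.488 CPM in the GFP+ and 1.04 CPM in the GFP- poly(A) library. Among 7 other cytokine receptor chains, 5 were tested, with a median of 1.18. Il3ra (1.13 ± 0.23, adjusted p = 0.0128) and Csf2rb, the shared beta chain of the IL-3 and GM-CSF receptors (2.62 ± 0.28, adjusted p = 0.000492), rose, and Csf2rb is uncertain because of its near-identical copy Csf2rb2. Il6st, the signalling chain gp130, fell (-1.12 ± 0.25, adjusted p = 0.0185). Il13ra1 (1.19 ± 0.37) and Crlf2, the TSLP receptor chain (1.18 ± 0.38), did not pass. Both passed in edgeR with the block of consecutive title numbers (Crlf2 adjusted p = 0.000991, Il13ra1 0.0274), with no filter on low counts (0.000811 and 0.0115) and without GFP- replicate 5 (0.00313 and 0.0444), and Il13ra1 also with DESeq2 (0.0423). Il3ra and Csf2rb are also expressed by myeloid cells, whose markers were higher in GFP+ Treg, and the part of such cells was not tested. Il3ra lost its call without GFP- replicate 20, GFP+ replicate 19 or GFP+ replicate 1 (adjusted p = 0.221, 0.243 and 0.0524), and Il6st without GFP- replicate 20, GFP+ replicate 19 or GFP+ replicate 4 (0.21, 0.224 and 0.107).

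Of 10 kinases and STAT factors, 9 were tested, and Syk rose (1.53 ± 0.24, adjusted p = 0.00331), with 23.7, 7.52 and 6.45 CPM in the GFP+ libraries, against 8.75, 2.32 and 2.28 CPM in the GFP- libraries. Syk is also a myeloid and B cell kinase. The B cell markers summed to between 84.3 and 305 CPM in GFP+ Treg and between 66.1 and 177 CPM in GFP- Treg, ranges that overlapped, the myeloid markers were higher in GFP+ Treg as given above, and the part of such cells was not tested. Jak2 (0.25 ± 0.40) and Stat3 (-0.23 ± 0.30) did not pass. Nor did Stat5a (-0.66 ± 0.21) and Stat5b (-0.36 ± 0.24), the STAT factors of IL-2, which are named after their values were seen. Of 14 adaptors and phosphoinositide 3-kinase genes, 10 were tested, and Gab2, an adaptor, rose (3.08 ± 0.56, adjusted p = 0.00745), at low levels of 2.10, 0.817 and 1.45 CPM in the GFP+ libraries, against 0.239, 0.217 and 0 CPM in the GFP- libraries. Sos1 (-0.23 ± 0.39) and Akt2 (-0.21 ± 0.21) did not pass. Without GFP+ replicate 19, Syk had an adjusted p of 0.0558 and Gab2 one of 0.0872, and Gab2 had 0.0869 without GFP- replicate 20. On deposited log2 RPKM, limma gave Gab2 an adjusted p of 0.149. The part of myeloid cells in the Gab2 difference was not tested either.

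Of 16 negative regulators of cytokine signalling, 12 were tested, of which 3 fell and 1 rose, beside 3.72% lower and 9.82% higher over all tested genes. Usp18, a protease that limits interferon signalling, was -2.13 ± 0.26 (adjusted p = 0.00102), Socs3, an inhibitor of gp130 and JAK signalling, -1.30 ± 0.28 (adjusted p = 0.0152) and Sh2b3, the adaptor Lnk, -1.03 ± 0.22 (adjusted p = 0.0149). Rnf128, the ubiquitin ligase Grail, rose (1.16 ± 0.28, adjusted p = 0.0278). Ptprc (0.00 ± 0.46), Ptpn11 (0.10 ± 0.27) and Socs7 (-0.19 ± 0.20) did not pass. Cish, an inhibitor that STAT5 induces, is on chromosome 9 and could not be read in the single-cell protocol table, as with Jak3 on chromosome 8. It had 237 CPM in the GFP+ and 196 CPM in the GFP- poly(A) library. With single libraries left out, Rnf128 lost its call in 5 of 6 fits (adjusted p from 0.052 to 0.318), Sh2b3 without GFP- replicate 20, GFP+ replicate 19 or GFP+ replicate 1 (0.224, 0.208 and 0.0681) and Socs3 without GFP+ replicate 1 (0.0604).

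Of 24 genes known to respond to IL-2 or STAT5, 23 were tested, of which 9 rose, 5 fell and 9 did not pass, with a median of 0.76, beside 9.82% higher and 3.72% lower over all tested genes. Gzmb, a cytotoxic protease, rose most (5.98 ± 0.29, adjusted p = 2.39e-05), followed in the size of p by Prdm1 itself (3.93 ± 0.27, adjusted p = 7.37e-05), which the sort selected. Icos, a costimulatory receptor (3.52 ± 0.39, adjusted p = 0.000595), and the transcription factor Nfil3 (1.80 ± 0.24, adjusted p = 0.00163) rose too. The survival gene Bcl2 fell (-3.42 ± 0.34, adjusted p = 0.000359), as did the cytokine gene Lta (-2.12 ± 0.25, adjusted p = 0.000767). Each of these genes, from Gzmb to Lta, kept its call with any single library left out. Some called genes of this list that are not named here lost theirs. Without the protocol term, only Gzmb of those named kept its call (edgeR adjusted p = 0.0418). Foxp3, the Treg-defining factor (0.21 ± 0.31), Ccnd2 (-0.07 ± 0.25) and Pim1 (0.40 ± 0.30) did not pass. Values in these lists are log2 fold changes ± SE from edgeR, with Benjamini-Hochberg adjustment.

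**Figure D5:**
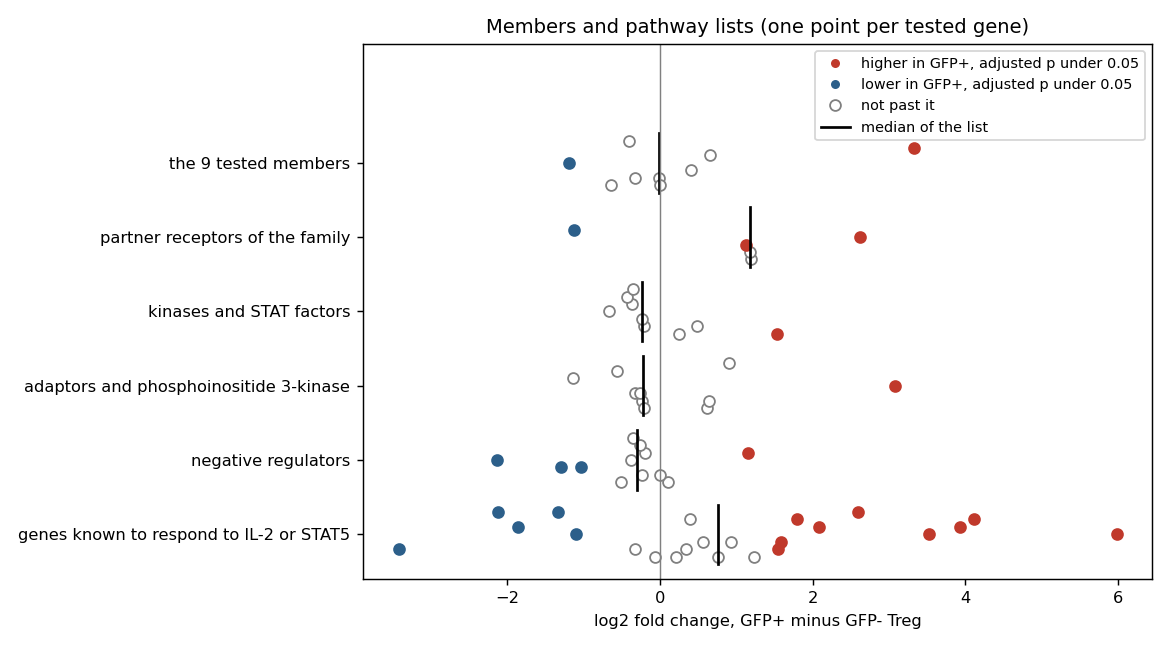
Log2 fold change, GFP+ minus GFP- (horizontal axis), of each tested gene of the receptors and of the pathway lists, with the median of each list as a bar and filled points for an adjusted p under 0.05. The negative regulators have 3 filled points below 0 and 1 above, and the genes known to respond to IL-2 or STAT5 have 9 above and 5 below.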

How the data were processed

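RNA of sorted Treg populations was measured in 6 libraries, 2 by poly(A) selection and 4 by a single-cell protocol. Per the file headers, the 2 tables the authors deposited hold raw read counts by Entrez gene, made with Subread, featureCounts and edgeR on build mm9, per the submitters' processing notes, with versions and strand not given in the sources used here. Log2 RPKM values, deposited by the authors and on the log2 scale per the file headers, served as an alternative.

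The tables were joined by gene. Genes at 0 in all 4 single-cell protocol columns (10072 of 26286, among them nearly all genes of chromosomes 3, 8 and 9) were left out of library sizes, and filterByExpr left 10551. CPM are on TMM library sizes. edgeR 4.0.16 in R 4.3.3 fitted the quasi-likelihood model with population and protocol, with 3 residual degrees of freedom, and adjusted p by Benjamini-Hochberg. DESeq2 1.42.0 and limma 3.58.1 gave alternatives. The scripts were tested on simulated data. No pair of libraries agreed within sampling noise (chi-square of at least 88.9 per degree of freedom). Jak3 was read from the poly(A) pair with a prior count of 2.

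The genes and lists were chosen with earlier results of these data known. All 10 receptor and kinase genes are described, and from each list up to 6 genes past the threshold with the smallest p and up to 3 with the largest. Some genes that this rule selects are not reported here. Populations share no replicate number. The 540 genes without a symbol were kept. P-values rest on the spread left after the population and protocol terms. It comes from the single-cell protocol libraries within each population and from any difference between protocols in the population effect. This spread may be partly technical.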

Additional observations from a re-analysis of the deposited data

How the results depend on the processing

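The populations share no replicate number in the labels. Consecutive title numbers (1 with 2, 4 with 5, 19 with 20) were assumed to be pairs and used as a block in an alternative fit, and across 10551 genes the replicate differences of the populations correlated with r = 0.447. Among the 9 tested genes, 1 rise and 1 fall were also called with RLE size factors, limma-voom, no filter on low counts, library sizes over all rows and limma on deposited log2 RPKM. DESeq2 and the block each called 2 higher and 2 lower, and the fit without protocol called 0 and 0. Single-cell protocol libraries alone called 0 lower, and leaving out single libraries gave between 0 and 1 lower. Over all genes, 1429 were called, against 2494 without the filter, 136 without protocol, 2942 with the block, 711 in single-cell protocol libraries alone and between 721 (without GFP+ replicate 19) and 2175 (without GFP- replicate 5) with 1 library left out. The share called higher was 72.5%, against 62.7% with DESeq2, 62.5% with deposited log2 RPKM, 56.7% with the block, 65.6% without the filter, 83.1% without protocol, 79.7% in single-cell protocol libraries alone and between 60.6% and 81.1% with 1 library left out. RLE size factors moved the median log2 fold change to -0.109. Of the pathway genes, 14 were called higher, against 2 without protocol, 23 with the block, 8 in single-cell protocol libraries alone and between 8 and 17 with 1 library left out. Called lower were 9, against 0 without protocol and between 5 and 10 with 1 library left out. The Jak3 log2 ratio was 0.37, against 0.40 on all counts without TMM and 0.72 in the deposited log2 RPKM, whose scale differs from that of the counts. The causes were not tested. Of 46 genes followed over 15 alternatives, 19 kept the same test outcome in each. Among these 19, only Csf2rb and Gzmb were called, and the rest passed in no fit. No gene called in the main fit changed direction. Some genes that did not pass, such as Il2rb and Il2rg, changed sign in some alternatives. Depth limits Il9r in GFP- Treg, where 2 libraries had 11 and 13 reads.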
